A study of Mus musculus with 16 samples.

Results

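The S100a8, S100a9 and secondary granule genes are 9 genes of neutrophil products, S100a8, S100a9, Ngp, Camp, Ltf, Lcn2, Wfdc21, Mmp8 and Mmp9, out of 46078 genes in the table. Their rows were taken by gene name and are described in all 16 samples. The genes were chosen by their measured values in these samples, namely their presence in SS MAC-1low HSCs and their wide spread among the 4 week MAC-1+ replicates. Levels in every comparison that holds either of these 2 populations are therefore a description with no test. The comparisons among the other 3 populations did not use the values that chose the genes, but only S100a8, S100a9 and Camp pass the filter on low counts within the groups compared. Ngp and Wfdc21 pass it only through other populations, and they are given there as values with no test.

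Neutrophils store antimicrobial and matrix-degrading proteins in granules that form in sequence as the cell matures. Primary granules form first, in promyelocytes, and hold enzymes such as myeloperoxidase, while secondary (specific) and gelatinase granules form later, in myelocytes and metamyelocytes, under the control of C/EBP factors. S100a8 and S100a9 are cytosolic calcium-binding proteins that pair to form calprotectin, abundant in neutrophils and monocytes. None of the 9 genes is a usual marker of an HSC.

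Mouse HSCs of wild-type B6.SJL background were sorted by the level of MAC-1, the integrin of Itgam (CD11b) and Itgb2 (CD18), and their RNA was sequenced to ask how the populations differ. Steady-state (SS) HSCs from untreated mice gave 3 MAC-1- and 3 MAC-1low samples. The 4 week populations came from mice given 8000 LSK cells after 900 cGy, 4 weeks earlier, and gave 3 MAC-1-, 4 MAC-1low and 3 MAC-1+ samples. All were sorted from cKit-enriched bone marrow as LSK CD48- CD150+ cells negative for CD3e, B220, Gr-1, NK1.1 and Ter119, so mature Gr-1 bearing neutrophils lay outside the gate, whereas CD11b was the sorted variable and was not a lineage marker here. No source states that the replicates of a population came from separate mice, so the p-values measure only the spread between these samples, which may be technical.

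The samples held between 13781278 and 28580658 counts. The floor of a library, the level that a count of 0 cannot exclude, was set at 3 counts, which is 0.112 to 0.22 CPM and covers counting error only. CPM are counts scaled to a common library size with TMM factors, and they are not divided by gene length. Itgam was checked against the sort. It stood at 8.31, 30.02 and 3.80 CPM in the 4 week MAC-1+ samples and at 1.57, 0.895 and 0.773 CPM in SS MAC-1low. It was at 0, 0.262 and 0.103 CPM in SS MAC-1-, at 0.368, 4.36, 1.08 and 0.112 CPM in 4 week MAC-1low and at 0, 1.78 and 0 CPM in 4 week MAC-1-. Itgam followed the gate at SS. At 4 weeks the MAC-1low and MAC-1- samples overlapped, and MAC-1+ replicate 3, the library with most of the members' counts, was below MAC-1low replicate 2. Itgb2 did not follow it, at 8.55 to 15.9 CPM in MAC-1+ and 18.8 to 31.45 CPM in 4 week MAC-1-. The HSC genes Hlf, Mecom, Kit and Ly6a were read in all 16 samples. Slamf1, the gene of the gate marker CD150, was picked after its values were seen. It stood at 7.98, 0.126 (2 counts) and 129 CPM in MAC-1+ replicates 1, 2 and 3, and at 2.45 to 224.6 CPM elsewhere.

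One library stood apart for other myeloid genes as well. In 4 week MAC-1+ replicate 3, 11 list genes that are not among the 9 had at least 100 counts while no other sample passed 50. They were picked after their values were seen. Among them Ctsg, a primary granule protease, had 2225 counts against at most 1 elsewhere, and Ly6c2, a monocyte marker, had 2736 against at most 4. Mpo had 4038 counts there and Elane 4978, both at 0 in MAC-1+ replicates 1 and 2. Each MAC-1+ value below is therefore given for each replicate, and the group values with and without replicate 3.

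Of the 9 genes, 5 have a neighbour among them on chromosome 3 or 9. In GENCODE M21 coordinates (GRCm38), S100a8 spans chr3:90668978-90670035 on the plus strand and S100a9 spans chr3:90692632-90695721 on the minus strand, 22.6 kb apart in the S100 cluster. Camp (chr9:109847379-109849617, minus), Ngp (chr9:110419747-110423012, plus) and Ltf (chr9:111019271-111042767, plus) follow each other on chromosome 9, with gaps of 570.1 kb and 596.3 kb. Mmp8 (chr9:7558456-7568485, plus) is far from these on the same chromosome. Lcn2 (chr2:32384633-32388252, minus) and Mmp9 (chr2:164940780-164955850, plus) are on chromosome 2, and Wfdc21 (chr11:83746940-83752642, plus) is on chromosome 11.

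Because granule genes are known C/EBP and PU.1 targets, the promoters of the best-read genes are shown with matches to both motifs. The RefSeq table (GRCm38.p6) held 7 of the 9, without Wfdc21 and Mmp9. The letters searched on both strands were TTGCNNAA for C/EBP and GAGGAAGT for PU.1, in 250 bases before to 50 after the start. The C/EBP letters stood in 5 of the 7 (S100a9, Ngp, Ltf, Lcn2 and Mmp8) and in 10.8% of all 32851 promoters, and the PU.1 letters in 2 of the 7 (S100a8 and Mmp8) and in 3.20% of all. The 250 bases before the RefSeq start follow, 5′ to 3′ on the gene's strand, with each match in capitals. For S100a8, Ngp, Camp, Ltf and Lcn2 the RefSeq start lies inside the GENCODE span of the gene. By that span their stretches therefore lie partly or wholly within the gene.
S100a8: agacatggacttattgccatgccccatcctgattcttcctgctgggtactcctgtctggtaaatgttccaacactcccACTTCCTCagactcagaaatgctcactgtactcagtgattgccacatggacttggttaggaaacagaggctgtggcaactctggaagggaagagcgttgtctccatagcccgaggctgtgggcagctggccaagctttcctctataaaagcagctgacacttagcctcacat
S100a9: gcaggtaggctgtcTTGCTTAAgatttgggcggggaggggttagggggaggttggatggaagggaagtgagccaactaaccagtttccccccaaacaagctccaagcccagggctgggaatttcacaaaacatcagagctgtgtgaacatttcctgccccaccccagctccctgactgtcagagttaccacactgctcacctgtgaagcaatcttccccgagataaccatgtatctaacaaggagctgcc
Ngp: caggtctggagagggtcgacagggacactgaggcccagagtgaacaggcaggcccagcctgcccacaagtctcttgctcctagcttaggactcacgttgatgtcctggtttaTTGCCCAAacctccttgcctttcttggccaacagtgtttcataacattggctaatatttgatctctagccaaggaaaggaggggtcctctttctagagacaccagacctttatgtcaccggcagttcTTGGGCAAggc
Camp: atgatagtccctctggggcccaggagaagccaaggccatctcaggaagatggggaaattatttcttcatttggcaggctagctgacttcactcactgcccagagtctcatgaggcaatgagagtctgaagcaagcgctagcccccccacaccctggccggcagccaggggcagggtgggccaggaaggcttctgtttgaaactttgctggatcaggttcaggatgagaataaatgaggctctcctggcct

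The S100a8 stretch is chr3:90668821-90669070 and its capitals are a PU.1 match on the minus strand, first base at -172 from the start. In S100a9 (chr3:90695722-90695971) the capitals are a C/EBP match at -236. Ngp (chr9:110419558-110419807) held 2 C/EBP matches, at -138 and, on the opposite strand, at -11. The match at -11 lies inside the GENCODE span of Ngp. The Camp stretch (chr9:109849457-109849706) held neither set of letters. Of the others, Ltf had its C/EBP match at -75, Lcn2 at -216 and Mmp8 at -19. The Lcn2 match also lies inside the GENCODE span of its gene. A match is a description of letters and not a binding site.

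S100a8 was read in every one of the 16 samples. Its CPM in SS MAC-1- were 91.1, 41.5 and 80.5 (71.0 ± 26.1, SD, n = 3), and in SS MAC-1low 73.6, 56.9 and 79.6 (70.0 ± 11.8, n = 3). After transplantation it stood at 9.73, 48.9 and 4.11 CPM in MAC-1- (20.9 ± 24.4, n = 3) and at 94.4, 21.5, 98.0 and 62.9 CPM in MAC-1low (69.2 ± 35.5, n = 4). The 2 SS populations covered the same range, and 4 week MAC-1- held the 2 lowest samples of the series. In 4 week MAC-1+ S100a8 stood at 94.3, 465.0 and 3911 CPM, so replicate 1 lay within the range of the other populations while replicates 2 and 3 were above all 13 other samples.

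S100a9, the calprotectin partner, was also read everywhere. It had 19.7, 28.3 and 9.95 CPM in SS MAC-1- and 44.3, 23.2 and 46.8 CPM in SS MAC-1low. At 4 weeks it had 10.04, 17.9 and 8.82 CPM in MAC-1-, 16.6, 9.92, 44.9 and 12.6 CPM in MAC-1low and 40.3, 207.3 and 1584 CPM in MAC-1+. As for S100a8, MAC-1+ replicate 1 was inside the range of the other samples and replicates 2 and 3 were above it. Per sample, S100a8 had between 0.466 and 8.09 counts for each S100a9 count (median 2.29). In the 3 MAC-1+ replicates this ratio was 2.34, 2.24 and 2.47, although the level of S100a8 differed 41.5-fold between replicates 1 and 3.

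Ngp encodes neutrophilic granule protein, a cathelicidin-related protein of secondary granules. It stood at 40.2, 26.1 and 10.98 CPM in SS MAC-1low (25.8 ± 14.6, n = 3), with 213 to 771 counts behind each, and 0 counts in each of the 3 SS MAC-1- samples. Its mean was thus at least 146-fold higher in SS MAC-1low, set against the mean floor of 3 counts per library. The 4 week MAC-1low samples had 0, 0, 1 and 2 counts and the MAC-1- samples 0, 2 and 169. Ngp was present in 1 of 7 of these, 4 week MAC-1- replicate 3, at 10.2 CPM. In 4 week MAC-1+ it had 21.6, 150.4 and 456.1 CPM, of which the first lay between the SS MAC-1low replicates.

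Camp, the precursor of the cathelicidin antimicrobial peptide, was patchier. It had 182, 452 and 215 counts in SS MAC-1low (9.50, 25.3 and 11.1 CPM), and 1, 184 and 0 counts in SS MAC-1-, where replicate 2 stood at 9.64 CPM. The 4 week MAC-1- samples had 68, 67 and 0 counts and the MAC-1low samples 0, 0, 90 and 455. Camp was thus present in all 3 SS MAC-1low samples and in only some samples of the other populations outside MAC-1+, at 2.54 to 17.05 CPM where it passed 3 counts. MAC-1+ had 7.88, 123.1 and 920.5 CPM, and replicate 1 was below 5 of the 13 other samples.

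Wfdc21, a small whey-acidic-protein-domain gene, was above all 13 samples of the other populations in each MAC-1+ replicate, at 13.77, 41.6 and 104.5 CPM. It had 153, 108 and 9 counts in SS MAC-1low and 0, 93 and 148 in SS MAC-1-. Of the 7 other 4 week samples 6 were at 0, and MAC-1low replicate 2 had 71 counts. The SS populations overlapped.

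The remaining 4 genes were nearly absent outside MAC-1+. Ltf (lactoferrin, a classical secondary granule protein) had 0, 60 and 671 counts in MAC-1+ and at most 2 in any other sample. Lcn2 (lipocalin 2, which binds bacterial siderophores) had 0, 23 and 1236 counts in MAC-1+ and 1 count in all other samples together. Mmp9 (gelatinase B) had 98 counts in MAC-1+ replicate 3 and at most 1 in every other sample. Mmp8 (neutrophil collagenase) never exceeded 3 counts, so at this depth its presence could not be told in any population. For these 4 genes SS MAC-1low was at or under the floor.

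**Figure D1:**
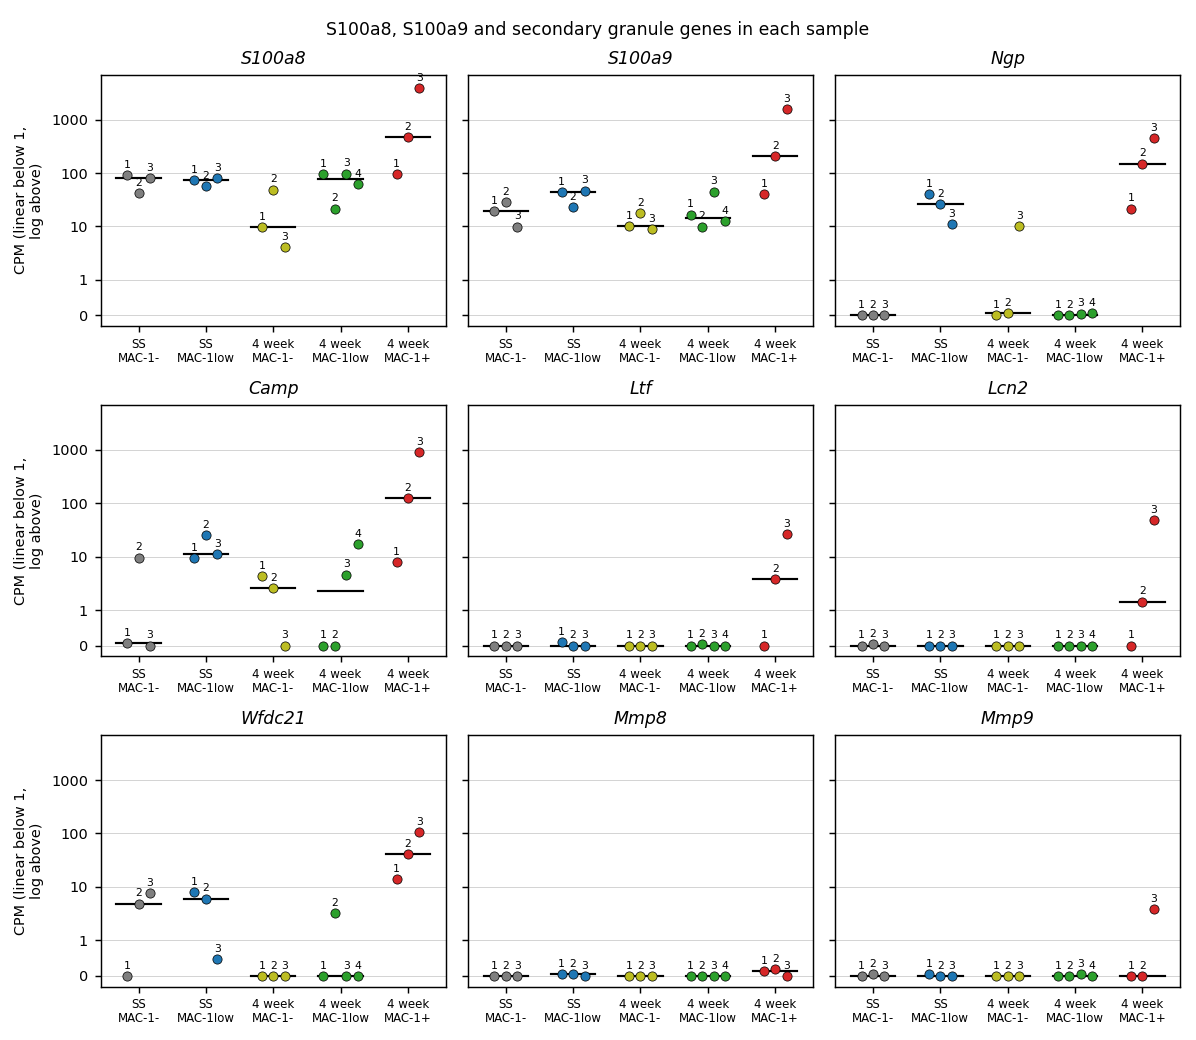
CPM of each gene (vertical axis, linear below 1 and logarithmic above) in each sample, with replicate numbers beside the points and a line at the median of each population. S100a8 and S100a9 are above 0 in all 16 samples, Ngp is at 0 in the 3 SS MAC-1- samples, and Ltf, Lcn2 and Mmp9 rise above 1 CPM only in MAC-1+ replicates 2 or 3.

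SS MAC-1low carried 5 of the 9 genes above 3 counts in each of its 3 samples, namely S100a8, S100a9, Ngp, Camp and Wfdc21, against 2, 4 and 3 in SS MAC-1-, 2 to 3 in 4 week MAC-1low and 3 in each 4 week MAC-1- sample. The 9 genes together made up 0.0179% of the counts in SS MAC-1low replicate 1 (95% Wilson interval 0.0173 to 0.0185%), 0.0151% in replicate 2 (0.0146 to 0.0158%) and 0.0160% in replicate 3 (0.0155 to 0.0166%). These shares were above those of SS MAC-1-, which were 0.0110, 0.00836 and 0.00907%, and near the 0.0167% of MAC-1+ replicate 1. S100a8 did not take part in that difference, since its SS means were 70.0 and 71.0 CPM. Fitted log2 fold changes of SS MAC-1low over SS MAC-1- were -0.02 for S100a8, 0.98 for S100a9, 2.23 for Camp, 0.22 for Wfdc21 and, against a group at 0, 11.98 for Ngp, with a median of 0.98 where the median of all tested genes was 0. Ngp alone did not overlap between the 2 populations, where 5.95% of all tested genes were higher in SS MAC-1low without overlap. Of all 13661 tested genes 0.0146% were called and none of the members was, a count from which nothing is read since this population chose the genes.

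Among the 4 week MAC-1+ replicates the genes took a common order, with replicate 1 lowest and replicate 3 highest for S100a8, S100a9, Ngp, Camp and Wfdc21. The step from replicate 1 to replicate 3 was 41.5-fold for S100a8, 39.3-fold for S100a9, 21.2-fold for Ngp, 117-fold for Camp and 7.59-fold for Wfdc21. The summed level of the 9 genes was 178.0, 992.8 and 7055 CPM. In replicate 3 they took 0.766% of all counts (95% Wilson interval 0.763 to 0.770%), in replicate 2 0.108% (0.106 to 0.109%) and in replicate 1 0.0167% (0.0162 to 0.0172%). PCR copies were counted as reads here, so these intervals cover counting error only.

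The make-up differed as well as the amount. Camp had 0.366, 0.818 and 2.02 counts for each Ngp count in replicates 1, 2 and 3. S100a8 and S100a9 together held 75.6, 67.7 and 77.9% of the counts of the 9 genes. Per kb of annotated exon, replicate 3 had 5636 CPM of S100a8, 3034 of S100a9, 1214 of Camp, 373 of Ngp and 241 of Wfdc21, followed by 18.6 of Lcn2, 7.69 of Ltf and 1.10 of Mmp9. The secondary granule genes Ltf and Lcn2 thus stood far below Camp and Ngp in the same library. Replicate 2 had Ngp, Camp, Ltf and Lcn2 together with 0 counts of Mpo, Elane and Ctsg, and replicate 3 had all of them. In bulk RNA, fewer cells with a transcript and less of it per cell cannot be told apart.

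**Figure D2:**
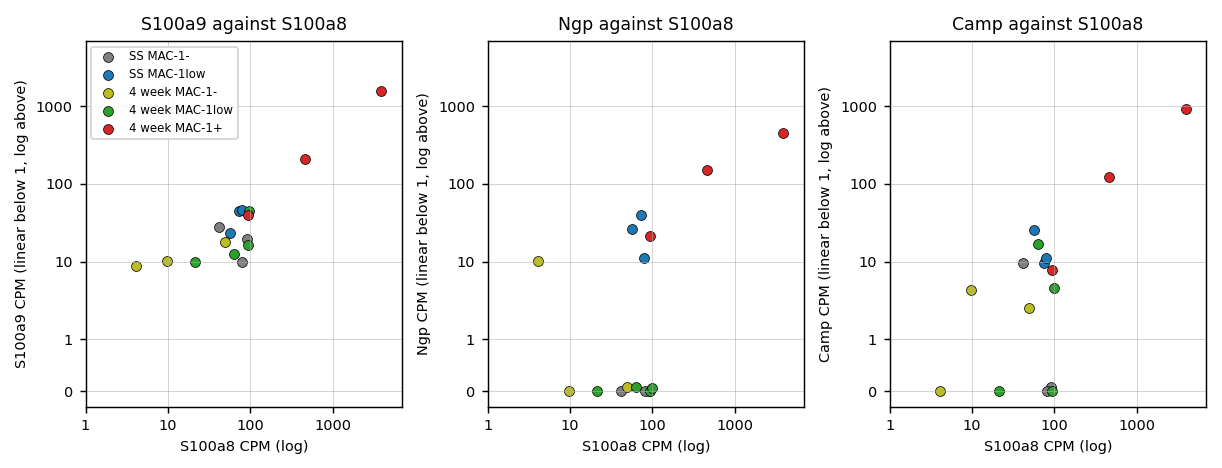
CPM of S100a9, Ngp and Camp (vertical axes, linear below 1 and logarithmic above) against CPM of S100a8 (horizontal axes, logarithmic), 1 point per sample, coloured by population. S100a9 follows S100a8 across the samples, while Ngp and Camp are at or near 0 in many samples with 20 to 100 CPM of S100a8.

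Across the 16 samples, Spearman's rho on log2 CPM was 0.694 between S100a8 and S100a9, 0.762 between S100a9 and Camp and 0.708 between Ngp and Camp. It was 0.355 between S100a8 and Ngp and 0.351 between S100a8 and Camp. Without MAC-1+ replicate 3 these 5 values were 0.629, 0.71, 0.643, 0.212 and 0.211. The samples share populations and library preparation, so these are descriptions. S100a8 was thus closer to S100a9 than to either secondary granule gene.

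The comparison of 4 week MAC-1low with 4 week MAC-1- holds no sample of the choosing populations. Its standard errors, however, use a spread estimated on all 16 samples, MAC-1+ among them. For S100a8, S100a9 and Camp, edgeR's quasi-likelihood test gave 0 of 3 with an adjusted p below 0.1, where 0.278% of all tested genes had one. It gave 0 of 3 with an unadjusted p below 0.05, where 991 of all 13661 tested genes had one. None of these 3 was called by the other tools, DESeq2 and limma-voom. S100a8 was 3.31-fold higher on the means, with a log2 fold change of 1.72 ± 0.99 (SE, adjusted p = 0.789), and without MAC-1- replicate 2 this was 3.32 (adjusted p = 0.724). Without MAC-1+ replicate 3 the S100a8 value was 1.75 ± 0.78 (edgeR, adjusted p = 0.657). In that fit S100a8 had an unadjusted p below 0.05, and S100a9 and Camp did not. The share of all tested genes with one was not counted for that fit, so nothing is read from it. With only the groups compared the S100a8 value was 1.76 (adjusted p = 0.615). S100a9 differed by 0.78 ± 0.86 (adjusted p = 1), or by 0.115 without MAC-1low replicate 3, and Camp by 1.26 ± 1.96 (adjusted p = 1). For all 3 the samples of both populations overlapped.

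Ngp went the other way, with 3 counts in 4 MAC-1low samples against 171 in 3 MAC-1- samples, a ratio of summed counts of 0.0123 (95% exact interval 0.0025 to 0.0364, counting error only). That difference rested on MAC-1- replicate 3, with 169 of the counts. The fitted log2 fold change was -6.39 with that replicate and -0.31 without it. Wfdc21 was at least 5.06-fold higher in MAC-1low against a group at 0, all from replicate 2, and without that replicate both populations were at 0.

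Between 4 week MAC-1- and SS MAC-1- the edgeR test again called 0 of these 3, where 0.432% of all tested genes were called. It gave 0 of 3 with an unadjusted p below 0.05, where 1427 of all 13661 tested genes had one. The other tools called 0 of the 3 as well. S100a8 had 20.9 CPM on average at 4 weeks and 71.0 at SS, a log2 fold change of -1.76 ± 1.03 (adjusted p = 0.573). Without MAC-1+ replicate 3 the S100a8 value was -1.82 ± 0.82 (edgeR, adjusted p = 0.477). In that fit S100a8 had an unadjusted p below 0.05, and S100a9 and Camp did not. Again the share of all tested genes with one was not counted, so nothing is read from it. With only the groups compared the S100a8 value was -1.78 (adjusted p = 0.703). S100a9 differed by -0.65 ± 0.90 (adjusted p = 0.897) and Camp by -0.52 ± 2.05 (adjusted p = 0.986). The S100a8 ranges overlapped through 4 week replicate 2 at 48.9 CPM, and without that replicate the log2 fold change was -3.36 (adjusted p = 0.5).

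Wfdc21 was at least 25.8-fold lower at 4 weeks, where all 3 samples were at 0, and at SS 1 of 3 was also at 0. Ngp was at least 19.4-fold higher at 4 weeks, again from replicate 3, and the other 2 samples had 0 and 2 counts, at or under the floor.

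**Figure D3:**
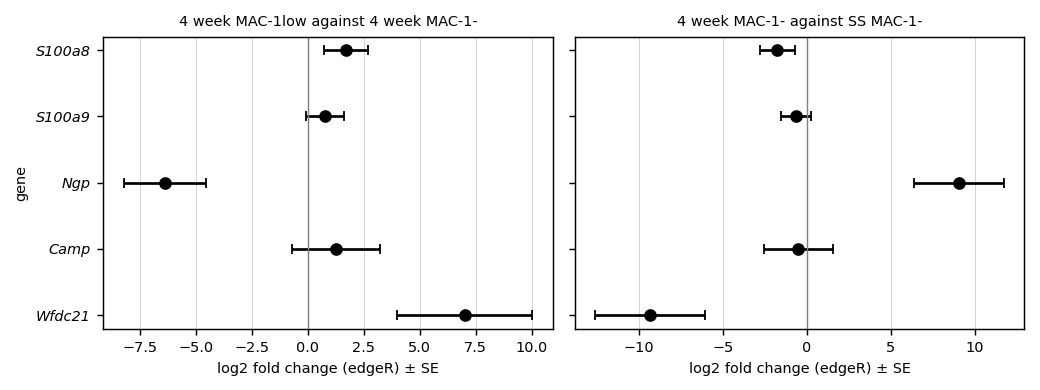
Log2 fold change by edgeR (horizontal axes) with its standard error (bars) of 5 genes in the 2 comparisons that hold no sample of the choosing populations. S100a8, S100a9 and Camp missed the adjusted p threshold of 0.1 in both. Ngp and Wfdc21 are drawn as fitted values, each against a group at or near 0 counts. Their bars come from the same fit and are not read as a test, since both genes pass the filter only through other populations. The Ngp values rest on 4 week MAC-1- replicate 3, with 169 counts.

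The comparisons that hold MAC-1+ or SS MAC-1low at 4 weeks are given as values only. Of 4 week MAC-1+ over MAC-1- the mean was 71.3-fold higher for S100a8, 49.9-fold for S100a9, 61.1-fold for Ngp and 154-fold for Camp, and at least 331-fold for Wfdc21, 104-fold for Lcn2, 62.8-fold for Ltf and 8.02-fold for Mmp9. Without replicate 3 the values were 13.4, 10.1, 25.1, 28.9, 172, 4.49 and 11.7-fold for the first 7 in that order, and Mmp9 was at 0. All 5 tested genes were higher without overlap, as were 10.2% of all tested genes. Of all tested genes 3.25% were called. Nothing is read from either share, since MAC-1+ chose the genes. The median log2 fold change of the 5 was 6.15 with replicate 3 and 4.66 without it, beside 0.07 for all tested genes. Wfdc21 stayed the highest of the 5 with its bound in place of the fitted value, so the median was the same.

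Of MAC-1+ over 4 week MAC-1low the means were 21.5-fold higher for S100a8, 29.1-fold for S100a9, 64.7-fold for Camp and 65.4-fold for Wfdc21. Without replicate 3 they were 4.04, 5.90, 12.1 and 34.0-fold. MAC-1+ replicate 1 lay within the MAC-1low range for S100a8, S100a9 and Camp, and above it for Ngp and Wfdc21. How many of all tested genes were higher without overlap was not counted here, so nothing is read from Ngp and Wfdc21. No gene was called in this comparison by edgeR (0% of all tested), while 936 genes had an unadjusted p below 0.05. With DESeq2 318 genes were called and with limma-voom 1, and without MAC-1+ replicate 1 edgeR called 22. Of 4 week MAC-1low against SS MAC-1low, S100a8 had nearly equal means (69.2 and 70.0 CPM), while S100a9 had 20.99 against 38.1 CPM, Camp 5.42 against 15.3 and Wfdc21 0.815 against 4.83. Ngp had 3 counts against 1450. In this comparison 0.0439% of all tested genes were called.

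Other granule genes were also most often read in MAC-1+ replicate 3. Of 14 other specific and gelatinase granule genes, 10 had more than 3 counts there, against 4 and 6 in MAC-1+ replicates 1 and 2 and 4 to 6 in the other 13 samples. Cybb, the heavy chain of the phagocyte oxidase, was at 27.5 CPM there and at most 1.38 elsewhere, and Chil3 at 55.9 CPM and at most 0.47 elsewhere. The summed level, 635.8 to 1268 CPM over the 16 samples, was mostly Lyz2 (345.6 to 759 CPM) and Anxa1 (127.8 to 508.7 CPM). Of the 14, 6 were tested. Anxa1, a calcium-binding protein of gelatinase granules, rose in 4 week MAC-1low over MAC-1- by 1.46 ± 0.30 on the log2 scale (adjusted p = 0.0943, edgeR), the only 1 of the 6 called in any comparison. That call was lost in 12 of the 16 fits that left out 1 sample and with the replicate block (adjusted p = 0.413). Of 13 other S100 genes 7 were tested, and S100a1 fell in 4 week MAC-1low (-0.96 ± 0.18, adjusted p = 0.0529) and in MAC-1+ (-1.26 ± 0.20, adjusted p = 0.00406) against MAC-1-, opposite in sign to S100a8.

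Some primary granule genes were read in all samples, such as Prtn3 (66.7 to 351 CPM) and Serpinb1a (72.4 to 214.2 CPM), but Mpo, Elane and Ctsg were not. Outside MAC-1+ replicate 3, Ctsg had at most 1 count and Mpo at most 69. Elane had at most 1 there, except 124 and 149 in 4 week MAC-1low replicates 1 and 2. Of 9 genes 7 were tested, and Prtn3 (proteinase 3) rose in MAC-1+ over MAC-1- (1.403 ± 0.39, adjusted p = 0.09) while Serpinb1a, an inhibitor of neutrophil proteases, fell (-1.11 ± 0.31, adjusted p = 0.0965). Without MAC-1+ replicate 3 neither was called, and the calls were lost in 12 and 14 of the 16 fits that left out 1 sample. Their summed level was 375.2, 480.1 and 1018 CPM in MAC-1+ and 330.3 to 536.8 CPM in the other 13 samples, so that replicate 3 alone exceeded the rest.

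Markers of a mature neutrophil behaved differently from gene to gene. Of 20 such genes 9 were tested. Ly6g, the defining surface marker, had at most 2 counts in any sample. Csf3r, the G-CSF receptor, was read throughout, at 15.3, 2.32 and 14.04 CPM in MAC-1+, 22.2, 2.01 and 27.1 CPM in SS MAC-1low and 14.9, 0.314 and 14.2 CPM in SS MAC-1-. More genes of the list were read in MAC-1+ replicates 2 and 3, the samples highest in the members, than in any other sample. MAC-1+ replicate 1 was not above the rest. Of the 20 genes, 6, 10 and 12 passed 3 counts in MAC-1+ replicates 1, 2 and 3, against 4 to 9 in the other 13 samples. The next genes were picked after their values were seen. Retnlg, a resistin-like secreted protein, was at 0, 6.28 and 26.6 CPM in MAC-1+ replicates 1, 2 and 3 and at most 8.35 CPM elsewhere. In the same replicates Clec4e went the other way, at 232.6, 120.9 and 48.3 CPM, and Mxd1 was at 13.7, 30.7 and 3.68 CPM.

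Wfdc17, like Wfdc21 a whey-acidic-protein-domain gene, rose in 4 week MAC-1low (3.82 ± 0.59, adjusted p = 0.0185) and in MAC-1+ (5.56 ± 0.66, adjusted p = 0.000576) over MAC-1-. It stood at 496.1, 554.5 and 586.0 CPM in MAC-1+, with no spread like that of the 9 genes. The summed level of the list was 846.6 to 924.8 CPM in MAC-1+, 427.3 to 597.8 in 4 week MAC-1low, 108.7 to 140.0 in MAC-1-, 65.8 to 178.2 in SS MAC-1low and 58.4 to 168.0 in SS MAC-1-. Wfdc17 made up most of that sum in MAC-1+. The part of neutrophil RNA in the levels of the 9 genes was not tested.

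**Figure D4:**
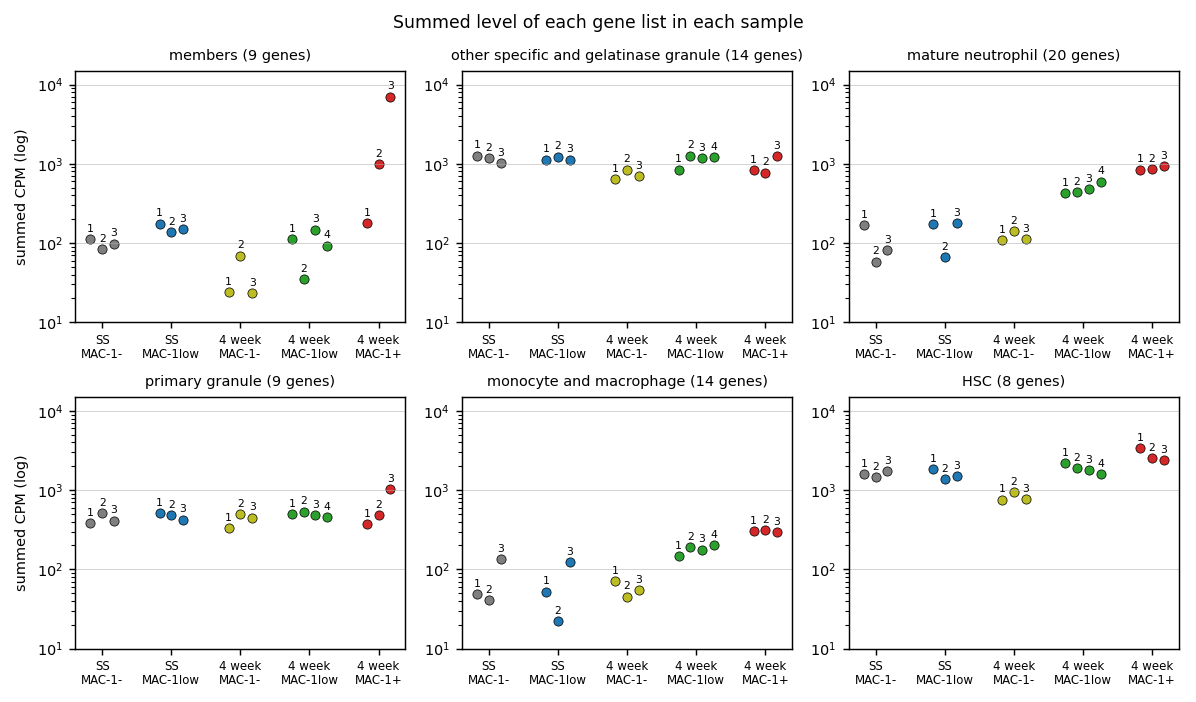
Summed CPM (vertical axes, logarithmic) of the 9 members and of 5 fixed gene lists in each sample, with replicate numbers. The members span 178.0 to 7055 CPM within MAC-1+, while the mature neutrophil and monocyte sums, mostly Wfdc17 and Ms4a6c, lie close together there although 6, 10 and 12 mature neutrophil genes and 4, 2 and 7 monocyte genes passed 3 counts.

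Among regulators, Spi1 (PU.1, a myeloid master factor) stood at 56.2, 54.7 and 46.5 CPM in MAC-1+, 27.5 to 52.6 CPM in 4 week MAC-1low and 1.51, 2.16 and 7.61 CPM in 4 week MAC-1-. It rose in MAC-1low (3.31 ± 0.62, adjusted p = 0.0529) and MAC-1+ (3.80 ± 0.65, adjusted p = 0.00676) over MAC-1- and fell in 4 week MAC-1- against SS MAC-1- (-3.12 ± 0.63, adjusted p = 0.0672). Cebpe, the factor required for secondary granule genes, had at most 2 counts except 21 and 72 in 4 week MAC-1low replicates 3 and 4, and Cebpa had at most 2 in any sample. Gfi1 had 53.6, 52.5 and 93.9 CPM in MAC-1+ and from 0 to 42.1 CPM elsewhere, and edgeR called it in no comparison (adjusted p = 0.253 for MAC-1+ over MAC-1-). The samples with most Ngp and Camp thus had Cebpe and Cebpa at or under the floor. Other C/EBP genes were read there, and they were picked after their values were seen. Cebpb was at 13.2, 12.06 and 15.23 CPM in MAC-1+ replicates 1, 2 and 3 and at 3.37 to 35.4 CPM elsewhere. Cebpd was at 10.02, 1.57 and 3.32 CPM in these replicates and at 0 to 14.9 CPM elsewhere.

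Of receptors and inhibitors of the products 5 of 9 were tested, and edgeR called 0 in every comparison, with 0 at an unadjusted p below 0.05. Tlr4, a receptor of calprotectin, had 60.2, 56.1 and 4.94 CPM in MAC-1+ replicates 1, 2 and 3, and 0 to 42.05 CPM elsewhere. Within MAC-1+ it was lowest where S100a8 was highest, but the other samples did not keep that order. Tlr4 was at 0 in SS MAC-1- replicates 1 and 3, with S100a8 at 91.1 and 80.5 CPM. It was at 0.565 CPM in 4 week MAC-1- replicate 1, with S100a8 at 9.73 CPM. Bsg (basigin), another receptor, lay between 89.3 and 264.8 CPM in all samples, and Timp2, an inhibitor of matrix metalloproteinases, between 0.313 and 55.1 CPM.

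Markers of other cells were set beside the members. The monocyte and macrophage list (14 genes) summed to 295.2 to 310.9 CPM in MAC-1+, 147.5 to 201.2 in 4 week MAC-1low, 45.3 to 71.7 in MAC-1-, 22.0 to 123.4 in SS MAC-1low and 40.9 to 134.6 in SS MAC-1-. Csf1r, its defining receptor, had at most 3 counts, and Ms4a6c rose in MAC-1+ over MAC-1- (2.20 ± 0.59, adjusted p = 0.0791). B cell genes summed to at most 186.5 CPM, erythroblast genes to at most 208.3, eosinophil genes to at most 19.95 and basophil and mast cell genes to at most 120.2. Hbb-bt, a beta-globin, rose in MAC-1+ (2.99 ± 0.48, adjusted p = 0.00413). The T and NK cell sum was mostly Nkg7, which fell in MAC-1+ (-2.51 ± 0.64, adjusted p = 0.0643). The HSC list summed to 2378 to 3381 CPM in MAC-1+, above the 758.4 to 2189 CPM of the other 13 samples. In MAC-1+ replicate 2, 7 of its 8 genes passed 3 counts, and Slamf1 did not. The part of any of these cell types in the members' levels was not tested.

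**Figure D5:**
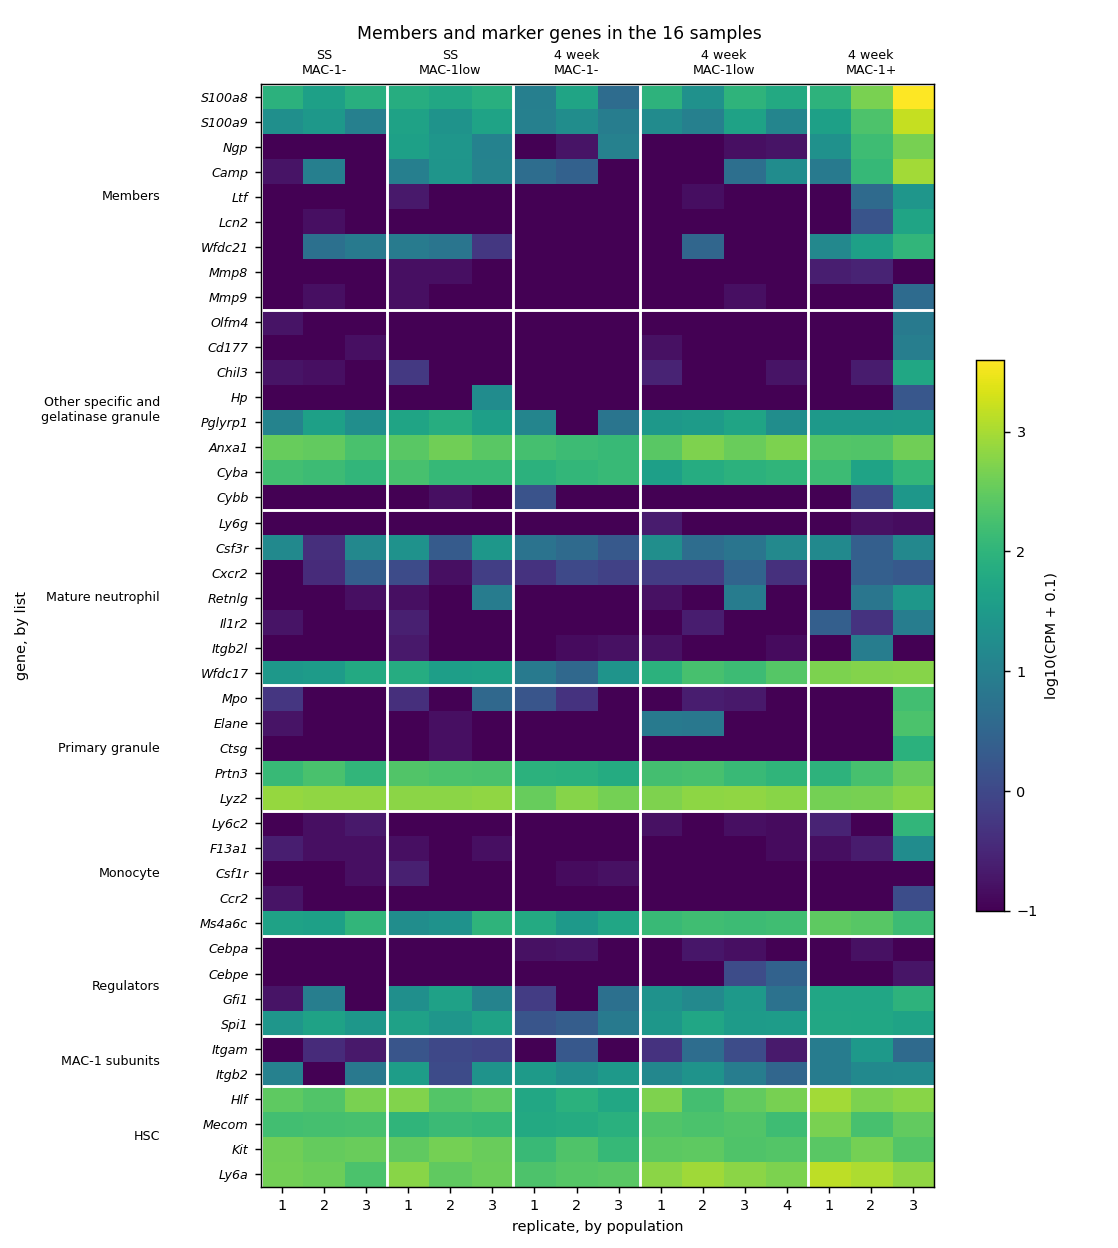
Level of each gene, as log10 of CPM + 0.1 (colour), in the 16 samples (columns, by population and replicate) for the 9 members and a selection of list genes. MAC-1+ replicate 3 shows the members together with Mpo, Elane, Ctsg and Ly6c2, replicate 2 shows the members without them, and Ly6g, Csf1r and Cebpa are dark in all samples.

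Whether the difference of MAC-1low from MAC-1- changed between SS and 4 weeks was tested for the other granule, mature neutrophil and regulator genes as an interaction. With edgeR 0 of 21 were called and 6 had an unadjusted p below 0.05, where 0.0586% of all tested genes were called.

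Among 11069 genes with a mean of at least 50 counts, those most like S100a8 by Spearman's rho over the 16 samples were Malt1, Lrrfip1, Krt18, Rbm43, Hlf, Laptm4b, Abcg3, Cmtm6, H2-K1 and Ocrl, in order from 0.871 to 0.809. Pearson's r without the 2 samples farthest from the median of S100a8, MAC-1+ replicate 3 and 4 week MAC-1- replicate 3, was from 0.367 (Malt1) to 0.858 (H2-K1). Those most like Ngp were Tmem248, Ndel1, Pgap2, Tbc1d16 and Ppp2r5d, in order from 0.871 to 0.794. None of the 15 was a granule gene of the lists, and Hlf was the only one of them on the HSC list.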

How the data were processed

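RNA of sorted HSCs from 16 samples of 5 populations was analysed. The authors deposited 1 table of counts, whole numbers of reads per gene without normalization, made from SMART-Seq libraries by STAR alignment within an nf-core pipeline. Not given in the sources used here were the counting program, the genome build and the gene models. DESeq2 is the only tool in the submitters' processing notes. No molecular identifiers were used, so PCR copies are counted.

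Populations and replicate numbers came from the labels. The 9 members and all gene lists were chosen with earlier results of these data known. Of 46078 genes 13661 passed edgeR's default filter on low counts, 5 members among them. The TMM factors and library sizes were taken from these 13661 and applied to all genes. Ltf, Lcn2, Mmp8 and Mmp9 did not pass and are given as counts. The filter keeps a gene that is high in as few samples as the smallest population holds. The main test was edgeR's robust quasi-likelihood test on all 16 samples with a mean per population (R 4.3.3, edgeR 4.0.16, limma 3.58.1, DESeq2 1.42.0), and Benjamini-Hochberg adjusted p below 0.1 over all tested genes was called. The log2 CPM used a prior count of 2. Alternatives were DESeq2, limma-voom (sample weights), edgeR with size factors from DESeq2, other filters, only the groups compared, a replicate block and leaving out each sample. All 3 tests were tested on simulated data first.

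Named genes are the members, list genes called in a comparison (at most 6 per list), otherwise the 3 highest of a list, and Cebpe, Cebpa, Gfi1, Spi1, Ly6g, Csf3r, Itgam and Itgb2. Others are said to have been picked after their values were seen. A result on 1 list gene is not reported here. Identifiers were matched to GENCODE M21 (45143 of 46078, all 9 members), which may not be the annotation of the files. Whether replicate numbers pair samples was checked, and the check did not settle it. Replicates differed by more than sampling noise in all 18 pairs. Python 3.11.15 and matplotlib 3.10.9 drew the figures.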

Additional observations from a re-analysis of the deposited data

Results flagged for a closer look

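In the only population of 4 samples, 4 week MAC-1low, 5 values among 43 genes lay far from the rest of the group by a gap test. Its rate of about 1 in 20 groups assumes normally distributed values and does not hold for sparse counts. Where 3 samples are at 0, any other value gives the largest possible gap, so those flags are descriptions only. Wfdc21 was at 3.26 CPM in replicate 2 and at 0 in the other 3. In the same replicate Ighm, the immunoglobulin mu chain of B cells, was at 10.6 CPM against 0 in the other 3, and Tlr4 was at 0.459 CPM against 35.3 to 42.0. In replicate 3 Ear6, an eosinophil ribonuclease, was at 9.87 CPM against 0, and Vpreb1, a surrogate light chain of early B cells, was at 4.94 CPM against at most 0.597. No explanation was tested.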

How the results depend on the processing

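The count of members called in the comparisons that hold no sample of the choosing populations was 0 under each alternative except DESeq2. It called 1 in 4 week MAC-1low over MAC-1- (Ngp) and 2 between the MAC-1- populations of both times (Ngp and Wfdc21). Neither gene passed the low-count filter within the groups compared, so nothing is read from these calls. The direction of Camp turned in both: in the first it was -0.23 with limma-voom, -2.65 with the replicate block and -0.55 to 2.06 when 1 sample was left out (negative without 4 week MAC-1low replicate 4), and in the second 0.95 with limma-voom, 0.78 with the replicate block and -1.32 to 5.92 when 1 sample was left out (positive without 4 week MAC-1- replicate 3 or SS MAC-1- replicate 2). The cause was not tested. Samples with the same number at the same time had deviations correlated at r from -0.00109 to 0.0397 over 12 pairs (median 0.0101). Over 30 pairs with other numbers at the same time r was -0.026 to 0.023 (median -0.00754). The pairs of replicate 1 at 4 weeks, at 0.0255, 0.0331 and 0.0397, lay above that range. Whether the numbers pair samples was thus not settled. In the column names MAC-1- replicate 2 follows MAC-1+ and MAC-1low replicate 3, and pairing by that order was not tested. Several single-gene calls hung on 1 sample: Spi1 and S100a1 in 4 week MAC-1low over MAC-1- were lost without 4 week MAC-1- replicate 1 or 2, and Wfdc17 there without replicate 1. Out of 16 fits that left out a sample, Spi1 lost its call in 5 there and in 7 between the MAC-1- populations, S100a1 in 6 there, and in MAC-1+ over MAC-1- Ms4a6c in 7 and Nkg7 in 5, against 0 for Wfdc17, Spi1, S100a1 and Hbb-bt.

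Of the other specific and gelatinase granule genes, 1 was called in 4 week MAC-1low against MAC-1-, but 0 with the replicate block or with only the groups compared and 0 to 1 when a sample was left out. Against 0 in the main test, 1 was called in MAC-1+ against MAC-1- with DESeq2 and 1 with limma-voom, and 2 in 4 week MAC-1- against SS MAC-1- with DESeq2. Of mature neutrophil genes, DESeq2 called 1 at SS, 2 in 4 week MAC-1low and 3 in MAC-1+ against MAC-1-, 1 in MAC-1+ against MAC-1low, 2 between the MAC-1low populations of both times and 3 between the MAC-1- populations. In the same list limma-voom called 2, 2 and 1 in the 3 comparisons among 4 week populations in that order, no filter gave 1 at SS, and only the groups compared gave 0 in 4 week MAC-1low against MAC-1- and 0 in 4 week MAC-1- against SS MAC-1-. Leaving out a sample gave 0 to 1 at SS, in 4 week MAC-1low against MAC-1- and in 4 week against SS MAC-1low, and 1 to 2 in MAC-1+ against MAC-1- and in 4 week MAC-1- against SS MAC-1-. The interaction count was 6 with DESeq2, 1 without a filter and 0 to 1 when a sample was left out. Over all genes the tools differed widely. In the 6 pairwise comparisons DESeq2 called 318 to 1321 genes, limma-voom 0 to 866 and edgeR 0 to 444.

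Depth limits Ltf, Lcn2, Mmp8 and Mmp9 outside MAC-1+, where a level up to the floor of 3 counts could not be seen. The fitted fold changes of Ngp and Wfdc21 against groups at 0 depend on the prior count. The 4 week MAC-1+ values rest most on replicate 3.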
